A study of Mus musculus with 6 samples.

Results

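The brush border hydrolases are enzymes anchored in the apical membrane of absorptive enterocytes, where they finish the digestion of sugars, peptides and phosphate esters, and villin is the actin-bundling protein of the microvilli that carry them. The set examined here was a chosen list of 10 genes: the phosphatase gene Alpi, the disaccharidase genes Sis, Lct, Mgam and Treh, the peptidase genes Anpep, Dpp4, Enpep and Mme, and the villin gene Vil1. Of these, 9 were measured, among 19057 named genes, and Mgam (maltase-glucoamylase), for which the platform annotation names no probe, was not analysed here. The 9 genes had 14 probes, and each gene was represented by its brightest probe. In the gut these enzymes are low in the crypt and rise as cells differentiate and move onto the villus, so their transcripts serve as measures of enterocyte maturity. Villin is present along the whole epithelium, and its promoter is widely used to drive transgenes there.

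The samples were mouse small intestinal organoids, epithelial structures grown in culture from intestinal tissue. The knockout group (3 arrays) came from Villin-Cre mice with Snai1fl/fl alleles and the control group (3 arrays) from Villin-Cre mice, so the Cre transgene was common to all samples. Tamoxifen at 0.5 µM was given to both groups for 24 hours until the organoids were harvested. The labels state neither the form of the Cre, nor the age of the mice, nor whether replicates were separate animals or cultures. P-values therefore rest on a spread between samples that could be technical. Snai1 encodes a zinc-finger transcriptional repressor, and the series title asks about its part in the choice of cell lineage and in keeping stem cells. The brush border genes bear on the absorptive side of that question.

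Values were normalised log2 signals from Illumina arrays, on a scale running between 7.71 and 14.8 with a median of 7.87 and an upper quartile of 8.27. Values near the bottom of that scale may be compressed. Differences of dim probes may then be understated, or such probes may detect no transcript, which was not tested. Snai1 itself lay near that bottom. Its brighter probe read 7.91, 7.86 and 7.96 on knockout arrays, against 7.87, 7.93 and 7.94 on control arrays, and so did not check the labels. Marker genes of stroma, immune cells and endothelium sat at the bottom of the scale: none of the 8, 6 and 5 measured genes of these lists averaged above the upper quartile, while 9 of 11 enterocyte markers did. Such low readings do not show that a cell type was absent. The enterocyte markers Fabp1 and Fabp2 also lay below that quartile, as did all 6 measured tuft cell markers.

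Upstream sequence is shown for Treh, Sis and Lct because Treh was the only one of the 10 genes with the E-box CAGGTG, the core sequence that Snai1 is known to bind, in the 250 bases before its start, and because Sis and Lct are the best studied promoters of the set. The sequences are RefSeq's, in build GRCm38.p6, read 5′ to 3′ on the strand of the gene and ending at the base before its start. Capitals mark matches on either strand to that E-box or to 3 other motifs. The first was GTTAAT, one arm of the palindromic site of the hepatocyte nuclear factor HNF1. The second was CAATAAA, one form of the site of the homeodomain factor CDX2. The third was AGATAA, a form of the site of GATA factors. No match overlapped another.
Treh, chr9:44672983-44673232, plus strand: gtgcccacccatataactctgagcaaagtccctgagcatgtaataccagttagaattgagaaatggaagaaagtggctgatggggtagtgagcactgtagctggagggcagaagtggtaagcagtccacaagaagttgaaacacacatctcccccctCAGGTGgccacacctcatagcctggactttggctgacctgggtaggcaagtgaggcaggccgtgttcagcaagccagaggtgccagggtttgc
Sis, chr3:72967864-72968113, minus strand: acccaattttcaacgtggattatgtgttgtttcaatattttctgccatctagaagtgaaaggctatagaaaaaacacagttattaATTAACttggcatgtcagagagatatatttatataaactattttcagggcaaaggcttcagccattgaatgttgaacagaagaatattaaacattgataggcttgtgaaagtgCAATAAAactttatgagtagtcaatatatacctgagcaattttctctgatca
Lct, chr1:128328319-128328568, minus strand: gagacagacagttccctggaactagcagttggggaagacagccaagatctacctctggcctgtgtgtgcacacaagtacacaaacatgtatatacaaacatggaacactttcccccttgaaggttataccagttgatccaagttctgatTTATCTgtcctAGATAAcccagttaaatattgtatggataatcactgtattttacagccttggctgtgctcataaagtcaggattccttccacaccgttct
All 10 genes had an entry, with 12 promoters in all since Mme has 3. CAGGTG was found in 1 of the 12 (Treh) and in 17.2% of all 32851 promoters of the same length. GTTAAT was found in 1 of the 12 (Sis), against 6.43% of all promoters, and CAATAAA also in 1 (Sis), against 4.2%. AGATAA was found in 3 (Dpp4, Lct and Mgam), against 9.99%. These are matches of letters, not measured binding sites.

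None of the 9 measured genes passed the test between knockout and control. With limma and Benjamini-Hochberg adjustment over all genes, 0 of 9 passed an adjusted p of 0.05, where 0.131% of the 19057 genes did, and 0 of 9 passed an unadjusted p of 0.05, where 7.22% did. In none of the 9 did the knockout and control values separate without overlap, against 12% of all genes. Mean levels were higher in the knockout for 3 genes and lower for 6, with a median difference of -0.0064 on the log2 scale, beside -0.00057 over all genes. For all 9 the difference was smaller than the wider of its ranges among arrays of one group. With 3 arrays a group, the smallest p that an exact permutation test could give was 0.1, and the members' values ran between 0.2 and 1. In bulk samples such as these, fewer enterocytes and less transcript per enterocyte cannot be told apart.

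**Figure D1:**
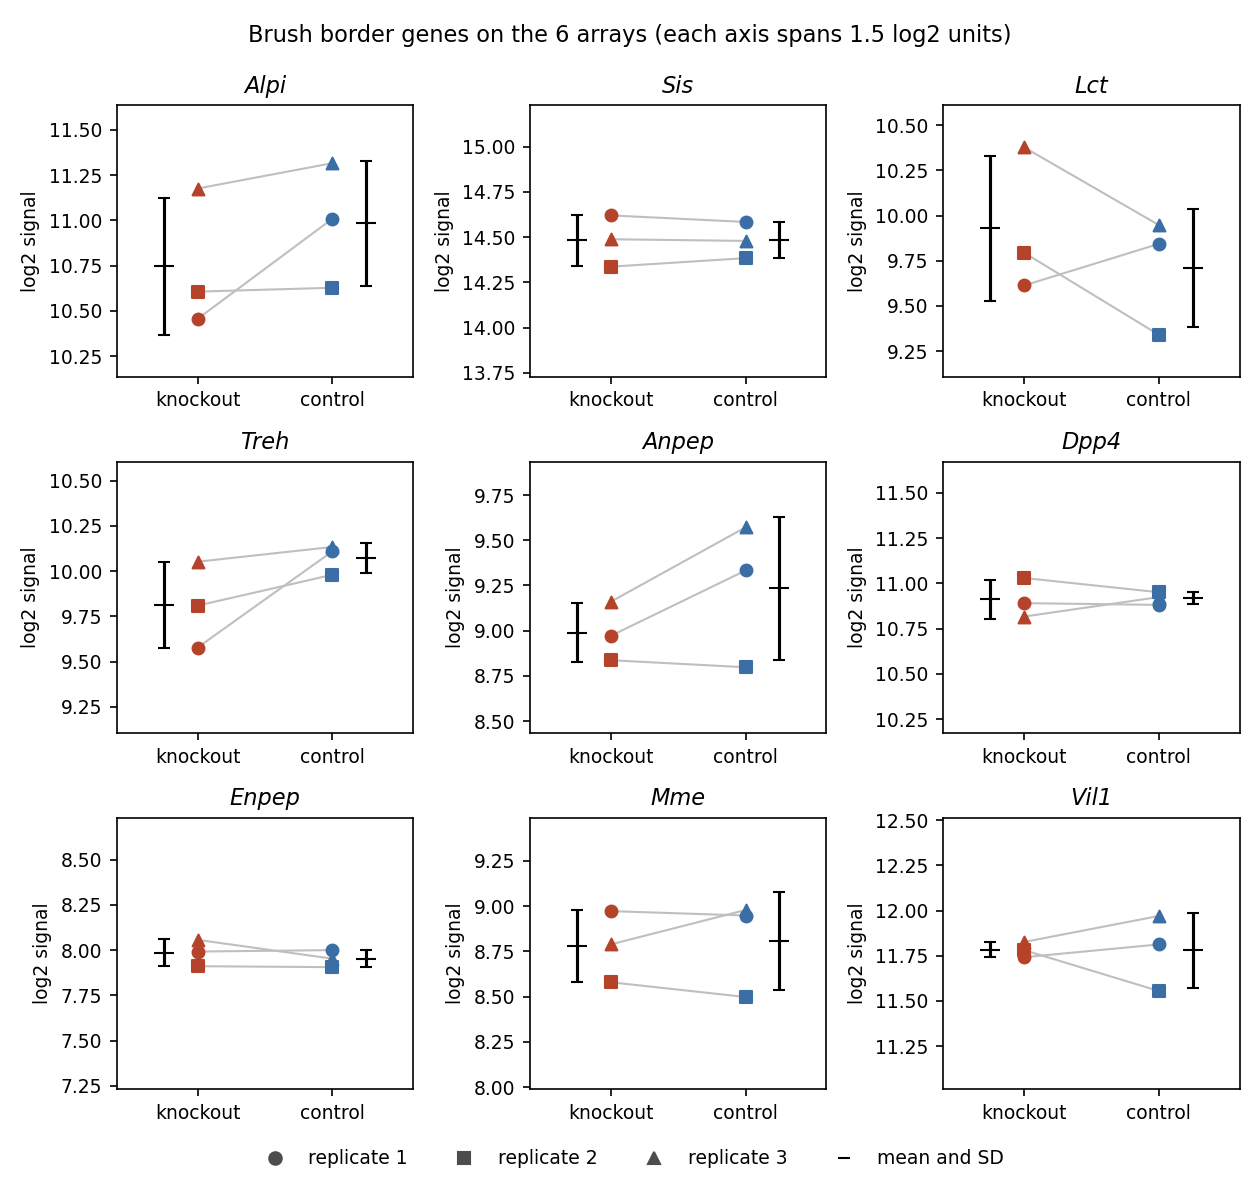
Normalised log2 signal of the 9 measured brush border genes on the 3 knockout (left) and 3 control (right) arrays, with marker shapes for the replicate number, grey lines joining arrays of the same number, and bars for the mean and SD of each group. The groups overlap for every gene, and Alpi, Lct, Anpep and Mme spread most widely within a group.

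Alpi encodes intestinal alkaline phosphatase, which dephosphorylates luminal substrates including bacterial lipopolysaccharide and is a standard marker of mature enterocytes. It read 10.46, 10.61 and 11.18 in knockout replicates 1 to 3, against 11.01, 10.63 and 11.32 in control replicates 1 to 3. The third array of each group was the highest, and knockout replicate 1 was the lowest of the 6. The mean was 10.75 ± 0.38 in the knockout and 10.98 ± 0.34 in control (SD, n = 3 each), and the difference of -0.24 ± 0.24 (SE) had a 95% interval of -0.84 to 0.36 (adjusted p = 0.94, limma). On the fold scale that interval ran between 0.56 and 1.28 times the control level. Its probe may also see the closely related alkaline phosphatase gene Akp3, which differed by -0.15.

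Sis encodes sucrase-isomaltase, which splits sucrose and the branched products of starch. Its brighter probe read 14.62, 14.34 and 14.49 on knockout arrays, against 14.58, 14.38 and 14.48 on control arrays. Arrays of the same replicate number differed by only 0.036, -0.047 and 0.0093, and the group difference was -0.00066 ± 0.084 (SE), with an interval of -0.21 to 0.21. This probe lay close to the highest value of the scale, and how far it can still respond there was not tested. A second, dimmer Sis probe read 9.27, 9.32 and 9.59 in the knockout, against 9.32, 8.88 and 9.51 in control. It differed by 0.16 ± 0.17 (SE; interval -0.26 to 0.58), with the pair numbered 2 apart by 0.44 and the other pairs by -0.05 and 0.09, so the 2 probes did not show the same pattern.

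Lct encodes lactase, the enzyme of milk sugar digestion, which in mice is highest before weaning. Among the hydrolases above the upper quartile it was the only one with a higher mean in the knockout by its brightest probe. Values were 9.61, 9.79 and 10.38 on knockout arrays, against 9.84, 9.34 and 9.95 on control arrays. Knockout replicate 3 was the highest and control replicate 2 the lowest of the 6. The mean was 9.93 ± 0.40 in the knockout and 9.71 ± 0.32 in control (SD, n = 3 each), a difference of 0.22 ± 0.24 (SE; interval -0.38 to 0.82; adjusted p = 0.95, limma). Within pairs the difference was -0.23, 0.45 and 0.43. Without knockout replicate 3 it was -0.0064, so the direction of the mean rested on that array.

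Treh encodes trehalase, which splits the disaccharide trehalose. It had the lowest p-value of the set. It read 9.58, 9.81 and 10.05 on knockout arrays, against 10.11, 9.98 and 10.13 on control arrays. Only knockout replicate 3 exceeded any control value, that of control replicate 2. Knockout averaged 9.81 ± 0.24 and control 10.07 ± 0.08 (SD, n = 3 each), so that control exceeded knockout 1.20-fold. The difference of -0.26 ± 0.12 (SE) had an interval of -0.56 to 0.034 (unadjusted p = 0.074, adjusted p = 0.75, limma; exact permutation p = 0.2). With the replicate number as a block the unadjusted p was 0.047 and the adjusted p 0.45. This was 1 of 9 members at an unadjusted blocked p under 0.05, where 10.9% of all genes reached it.

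Among the peptidases, Anpep, Dpp4, Enpep and Mme differed in how far they varied rather than in any tested change. Anpep encodes aminopeptidase N, which removes amino acids from the start of peptides. It read 8.97, 8.84 and 9.16 on knockout arrays, against 9.33, 8.80 and 9.57 on control arrays, and the control arrays spread over 0.77, wider than the 0.32 of the knockout arrays. The difference was -0.24 ± 0.20 (SE; interval -0.74 to 0.26; adjusted p = 0.92, limma), lower in the pairs numbered 1 and 3 (-0.36 and -0.41) and near zero in the pair numbered 2 (0.039).

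Dpp4 encodes dipeptidyl peptidase, which cleaves dipeptides after proline or alanine and inactivates incretin hormones. Its arrays spread little, over 0.21 within the knockout group and 0.070 within control. It read 10.89, 11.03 and 10.82 on knockout arrays, against 10.88, 10.95 and 10.92 on control arrays. The difference of -0.0064 ± 0.057 (SE) had an interval of -0.15 to 0.13, which corresponds to between 0.90 and 1.10 times the control level. Its second probe, based on another cDNA, averaged 7.93 in the knockout and 7.89 in control, near the median of the scale, and carried little information.

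Mme encodes neprilysin, a metallopeptidase of small peptides that is also found on stromal and lymphoid cells. Its brightest probe read 8.97, 8.58 and 8.79 on knockout arrays, against 8.95, 8.50 and 8.98 on control arrays. The second array of each group was the lowest. The difference was -0.028 ± 0.16 (SE; interval -0.42 to 0.36). The other 3 Mme probes averaged between 7.92 and 7.99 in either group, near the bottom of the scale, with differences of 0.011 to 0.043.

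Enpep encodes aminopeptidase A, which removes acidic amino acids and acts on angiotensin. Its probe was dim, at 7.9918, 7.9108 and 8.0565 on knockout arrays, against 7.9997, 7.9055 and 7.9524 on control arrays. It was the only measured member below the upper quartile of the scale, and its difference of 0.034 ± 0.045 (SE; interval -0.076 to 0.14) may be understated.

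Vil1 had nearly the same mean in both groups. It read 11.74, 11.78 and 11.83 on knockout arrays, against 11.81, 11.56 and 11.97 on control arrays. The knockout values lay within 0.084 of each other, inside the control range of 0.41. The knockout mean was 11.78 ± 0.04 and the control mean 11.78 ± 0.21 (SD, n = 3 each). The difference was 0.0038 ± 0.10 (SE; interval -0.25 to 0.26; adjusted p = 0.999, limma). Of the 14 probes of all members tested one by one, 0 passed an adjusted p of 0.05, where 0.106% of 34885 probes did, and for none did the groups separate.

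**Figure D2:**
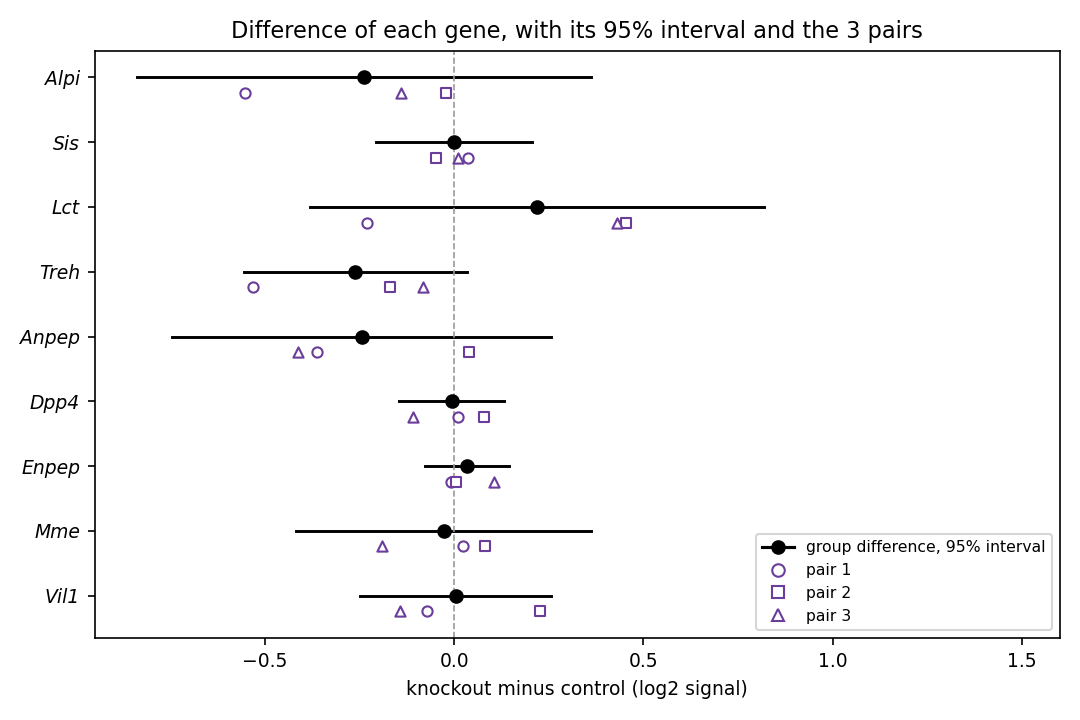
Knockout minus control difference in log2 signal of each gene, as the group difference with its 95% interval from limma (black) and as the difference within each pair of arrays of the same replicate number (open symbols). Every interval, from the fit without the replicate block, includes 0. With the block the interval of Treh was -0.52 to -0.0054. Alpi and Treh lie below 0 in 3 of 3 pairs.

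The genes were also compared within pairs of the same replicate number. Of 27 pair differences, 15 were below 0 and 12 above. Alpi (-0.55, -0.021 and -0.14) and Treh (-0.53, -0.17 and -0.081) were lower in 3 of 3 pairs, and these were 2 of the 9 members, where 15.1% of all genes were lower in all pairs. No member was higher in 3 of 3 pairs, against 15.7% of all genes. For both genes the pair numbered 1 gave the greatest part of the mean difference, and knockout replicate 1 was their lowest array. Without that array the difference was smaller, -0.093 for Alpi and -0.14 for Treh, and for Alpi it was -0.072 without control replicate 3, its highest array. The median over the members was -0.071 in the pair numbered 1, 0.039 in the pair numbered 2 and -0.11 in the pair numbered 3, with 6, 3 and 6 of the 9 members lower. The SEs and intervals given above for each gene ignore the replicate number. With it as a block the SE was smaller for every measured member, such as 0.027 for Sis. The blocked interval was -0.54 to 0.059 for Alpi, -0.51 to 0.020 for Anpep and -0.52 to -0.0054 for Treh. No member passed an adjusted p of 0.05 with the block.

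The spread between arrays of one group was partly shared by the members. Control replicate 2 was the lowest control array for 8 of the 9 genes, the exception being Dpp4, for which it was the highest. Over all genes this array was the lowest of its group for 34.4%. The pattern was noticed after the values were seen. In the knockout group replicate 2 was lowest for 4 genes (Sis, Anpep, Enpep and Mme), against 33.4% of all genes, and replicate 1 for another 4 (Alpi, Lct, Treh and Vil1). Averaged over the 8 members above the upper quartile, the level was 10.61, 10.60 and 10.84 on knockout replicates 1 to 3, against 10.82, 10.52 and 10.92 on control replicates 1 to 3. Without control replicate 2 the median difference over the 9 members became -0.11, against -0.0064 with all arrays.

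**Figure D3:**
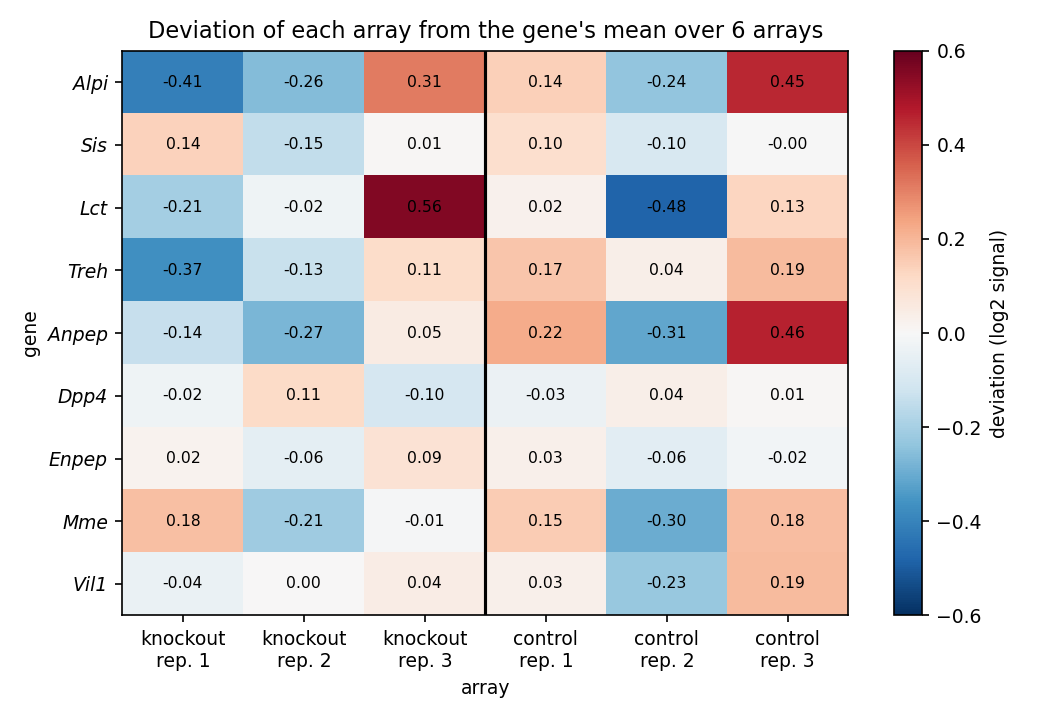
Deviation of each array from the mean of that gene over the 6 arrays (log2 signal, colour and number), with knockout arrays left of the line and control arrays right. Control replicate 2 is the lowest control array in every gene but Dpp4, and Lct is at 0.56 on knockout replicate 3.

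The stem cell and enterocyte marker lists also varied with the replicate number, while not every other list did so in the same way. The mean of 8 crypt base stem cell markers was 9.37, 9.56 and 9.49 on knockout arrays, against 9.26, 9.46 and 9.20 on control arrays, highest in replicate 2 of both groups. On a summed linear scale the list lay between 13.2 and 13.4 (log2) in the knockout and between 12.9 and 13.3 in control. The mean of 11 enterocyte markers was 10.74, 10.55 and 10.78 in the knockout, against 10.80, 10.63 and 10.88 in control, lowest in replicate 2 of both groups. Its summed level (log2) lay between 15.1 and 15.3 in the knockout and between 15.2 and 15.5 in control. Enteroendocrine markers were likewise lowest in replicate 2 of both groups. Paneth markers, at 10.51, 10.79 and 11.02 in the knockout and 10.76, 10.78 and 10.96 in control, were lowest in replicate 1 of both. Goblet markers, at 10.19, 10.33 and 10.65 in the knockout and 10.28, 10.17 and 10.58 in control, were lowest in different replicates. The part of any of these lists in the spread of the brush border genes was not tested.

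Likeness between members was described over the 6 arrays, which share the replicate structure, and is given without a p-value. Anpep followed the mean of the other members most closely (r = 0.96), then Vil1 (r = 0.87) and Alpi (r = 0.82). Alpi and Anpep followed each other at r = 0.87, and Sis and Mme at r = 0.86. Dpp4 ran against the mean of the others (r = -0.60). Among 6961 other genes above the upper quartile, those closest to the members' mean profile were Bdh1 (r = 0.99), a ketone body dehydrogenase, Cxadr (r = 0.99), a junction protein, 6430548M08Rik, Gipc2 and the inositol pyrophosphate kinase gene Ppip5k2 (each r = 0.98). Bdh1 read 11.55, 11.54 and 11.61 in the knockout, against 11.63, 11.47 and 11.66 in control. Its low second control array follows from its choice by likeness to that profile. With 6 arrays and 6961 candidates, such high r values can arise without any relation. None of these 5 genes passed the test between groups (adjusted p = 0.948 to 0.995, limma), which is no separate result, since they were picked for a profile with little group difference.

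Other enzymes of the brush border gave both directions. Of 19 listed genes 17 were measured and 0 passed in either direction. In the knockout 10 had a higher and 7 a lower mean, and the median difference was 0.003. Of the 17, 9 averaged above the upper quartile, and the median was the value of a dim gene, at 7.83. Naaladl1, a peptidase, read 9.15, 9.03 and 9.33 on knockout arrays, against 8.94, 8.48 and 8.92 on control arrays, a separation without overlap (difference 0.39 ± 0.14, SE; adjusted p = 0.63, limma). Cpm, a carboxypeptidase, differed by 0.14 and likewise did not overlap (adjusted p = 0.48), while the dipeptidase gene Dpep1 differed by -0.25 without overlap (adjusted p = 0.52). Without overlap were 3 genes higher (Naaladl1, Cpm and, at the bottom of the scale, Cubn) and 1 lower (Dpep1), or 4 of 17, where 12% of all genes did not overlap.

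Genes of microvillus structure and trafficking were without a call. Of 19 measured genes (21 listed), 0 passed, and 9 had a higher and 10 a lower mean. The differences ran between -0.17 and 0.15 with a median of -0.015. Of the 19, 16 averaged above the upper quartile, and the median was the value of a gene below it. Intervals of single genes could be wider, such as -0.39 to 0.038 for Myo1a. The members of lowest p were Baiap2l2, a membrane-bending adaptor (-0.10), Myo5b, the motor of apical recycling (-0.14), and Myo1a, which links the microvillus core to its membrane (-0.17), with adjusted p between 0.72 and 0.78 (limma). Of 9 measured transporters of sugars, peptides and amino acids (10 listed), 0 passed and 3 had a higher mean. The median difference of -0.006 was the value of a dim gene, and 5 of the 9 averaged above the upper quartile. Differences ran between -0.43 and 0.22. The cystine and basic amino acid transporter Slc7a9 read 10.18, 10.26 and 10.51 in the knockout, against 10.71, 10.53 and 11.00 in control, and did not overlap (-0.43 ± 0.14, SE; adjusted p = 0.56). Slc36a1, near the bottom of the scale, differed by -0.05 and Slc1a1 by -0.09. The glucose carrier genes Slc5a1, at 0.19 (interval -0.36 to 0.74), and Slc2a2, at -0.20 (interval -0.76 to 0.35), had no established sign. These 2 were picked after their values were seen.

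Transcription factors of the enterocyte bind promoters of genes such as Sis, Lct and Alpi. They were likewise without a call, 0 of 12 measured (14 listed). The median difference of 0.015 lay between dim genes, and 8 of the 12 averaged above the upper quartile. Differences ran between -0.11 and 0.26. Cdx2, which activates Sis, read 12.75, 12.81 and 12.81 in the knockout, against 12.66, 12.65 and 12.75 in control (0.10 ± 0.04, SE; adjusted p = 0.60, limma). Elf3 differed by 0.26, by its brightest probe only, since the mean of its probes differed by -0.02, and Klf4 by -0.06. Among the regional markers, 7 genes of the proximal intestine had a median difference of -0.097, with the iron exporter Slc40a1 at -0.55, Apoa4 at -0.10 and Rbp2 at -0.21, and 4 of the distal intestine a median of -0.19, with the bile acid exporter genes Slc51b at -0.32 and Slc51a at -0.33 and Fabp6 at -0.06. Above the upper quartile were 5 of the 7 proximal genes and 2 of the 4 distal genes, Slc51a and Slc51b. The distal median lay between Slc51b and Fabp6, a gene below that quartile. None of the regional genes passed (lowest adjusted p = 0.30, for Slc51b, limma), also not with the replicate block (lowest adjusted p = 0.072, again for Slc51b).

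In the enterocyte marker list 9 of 11 genes had a lower mean (median -0.061), with Apoc3 at -0.25, Apoa1 at -0.28 and Slc26a3 at -0.19 (-0.061 with the mean of its probes). In the stem cell list 7 of 8 had a higher mean (median 0.060), with Olfm4 at 0.45, Lgr5 at 0.42 and Axin2 at 0.28. Of these 8, 5 averaged above the upper quartile. The smallest of the 7 differences was 0.0093, of a gene below that quartile. Over all 19057 genes, 9393 had a higher and 9664 a lower mean. With the mean of their probes Olfm4 differed by 0.24 and Lgr5 by 0.21. Paneth markers had a median of -0.076 (Lyz1 -0.10, Ang4 -0.22, Pla2g2a -0.08), goblet markers -0.013 (Muc2 0.29, Spdef 0.11, Fcgbp -0.02) and enteroendocrine markers -0.085 (Chga -0.17, Tph1 -0.06, Sct -0.15). Of the measured Paneth, goblet and enteroendocrine markers, 5 of 5, 6 of 8 and 7 of 9 averaged above the upper quartile. Fcgbp and Tph1 were below it. Muc2 differed by 0.087 with the mean of its probes and by 0.028 without knockout replicate 3. Tuft cell, stroma, immune and endothelial markers had medians of 0.012, 0.004, 0.002 and -0.012, at levels where values may be compressed. No gene of these lists passed over all genes, with or without the replicate block. The lowest blocked adjusted p was 0.069 (limma), for Lgr5, whose pairs differed by 0.35, 0.45 and 0.44. In the enterocyte list it was 0.10, for Rbp2, whose pairs differed by -0.21, -0.22 and -0.21.

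**Figure D4:**
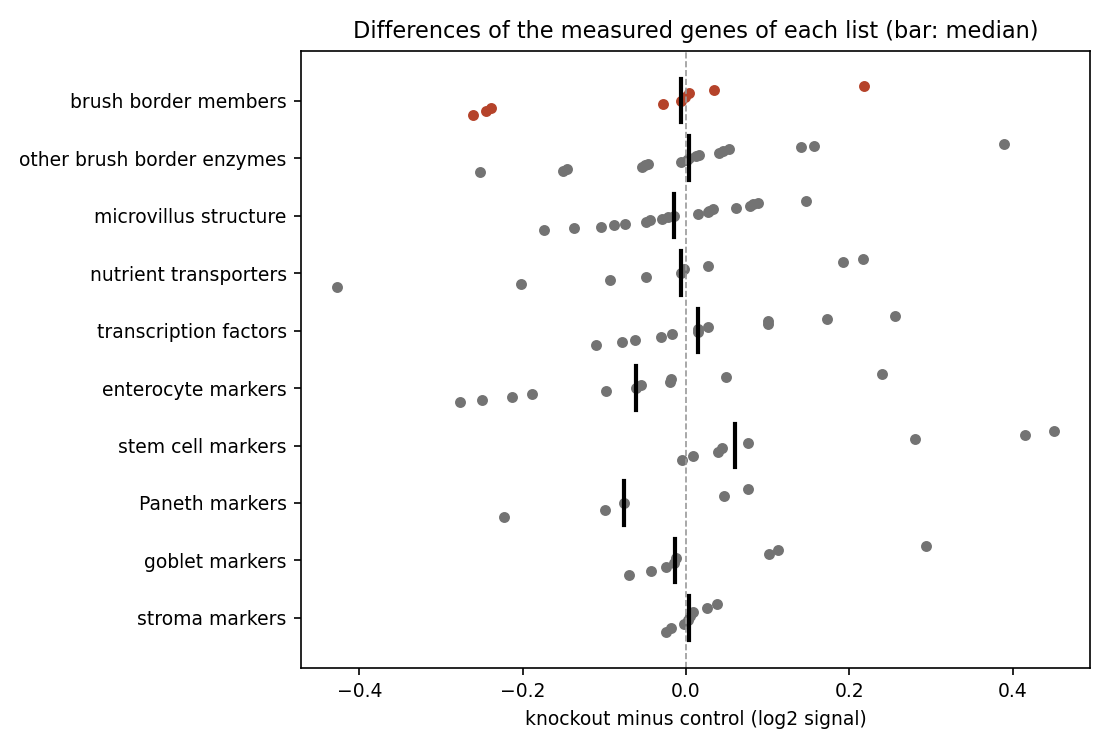
Knockout minus control difference in log2 signal of each measured gene, by list, with a bar at the median of the list. The brush border members (top) lie between -0.26 and 0.22 around a median near 0, within the span of the other brush border enzymes (-0.25 to 0.39) but for Treh.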

How the data were processed

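Total RNA of 6 organoid samples was, per the labels' protocols, extracted with Trizol, cleaned with DNase treatment, amplified to biotinylated cRNA and hybridised to Illumina arrays. The authors deposited normalised log values, taken here as log2, for 45281 probes. Once sorted, values differed between arrays by no more than 0.0019, as after quantile normalization. Background correction, log base and software were not given in the sources used, and no detection calls were used. The number of arrays limits the precision. Probes were named by the platform annotation (34885 with 1 gene, 18 with several, 10378 with none). Gene numbers of 34807 probes were found in RefSeq's GRCm38.p6 table, with the same symbols.

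Knockout and control were compared in R 4.3.3 by limma 3.58.1 (linear fit with eBayes, no trend) over all 19057 genes, each by its brightest probe, with Benjamini-Hochberg adjustment and no filter on dim genes. The code was tested on simulated data. Members and lists were chosen with earlier results of these data known. Of 143 other listed symbols, 130 were measured. Named genes were all members, the 3 genes of lowest p in each list and the 5 most alike. Others are marked as picked after seeing their values, apart from Snai1 and genes given only as a probe relative, count or level. Deviations from group means correlated over all genes at r = 0.35, 0.33 and 0.46 for arrays numbered 1, 2 and 3. The numbers were also used as pairs and as a block, although the labels do not say what a number shares. SEs, intervals and p-values are from the fit without that block unless the block is named. Alternatives covered the replicate block, normalization, dim filters, probe handling, variance model, array weights and leaving out each array.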

Additional observations from a re-analysis of the deposited data

How the results depend on the processing

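In all 15 alternatives 0 of the 9 members passed, including the replicate block, which changed no call among them (lowest blocked adjusted p 0.45, for Treh). Over all genes the count of 25 calls became 9 with the replicate block, 41 among genes above the upper quartile and 71 with trend and robust variances, and 4 to 23 with 1 array left out. Alpi, Treh and Anpep kept a negative difference in all of them, running over -0.45 to -0.07, -0.38 to -0.14 and -0.46 to -0.08 when an array was left out. The median difference over members ran between -0.11 and 0.021 when an array was left out, lowest without control replicate 2.

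Differences near 0 changed sign. With the mean of a gene's probes, Sis was 0.080, Dpp4 0.014, Mme 0.012, Elf3 -0.021, Pecam1 0.0034, Bdh1 0.024 and 6430548M08Rik 0.0020. Without a change of sign, the mean of a gene's probes brought Cpm to 0.080, Myo5b to -0.038, Slc7a9 to -0.25, Slc1a1 to -0.045, Klf4 to -0.016, Slc40a1 to -0.28 and Chga to -0.10. With arrays centred on bright probes Sis was 0.00020. With array weights Dpp4 was 0.0010 and Vil1 -0.013. With 1 array left out, ranges that crossed 0 were -0.070 to 0.072 for Sis, -0.0064 to 0.38 for Lct, -0.065 to 0.041 for Dpp4, -0.0013 to 0.072 for Enpep, -0.18 to 0.072 for Mme, -0.11 to 0.099 for Vil1, -0.21 to 0.028 for Pla2g2a, -0.044 to 0.00042 for Fcgbp, -0.030 to 0.0059 for Pecam1, -0.082 to 0.013 for Bdh1, -0.086 to 0.031 for 6430548M08Rik and -0.12 to 0.012 for Gipc2. Muc2, at 0.028 to 0.53, and Slc26a3, at -0.28 to -0.12, kept their sign. The cause of these changes was not tested. Enpep was absent where only genes above the upper quartile were kept. Signal near the bottom of the scale limits what Enpep and the dim Mme and Dpp4 probes can show.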
